A study of Bombyx mori with 6 samples.

Results

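Serine proteases of the silkworm, Bombyx mori, were followed in 6 RNA sequencing libraries. The genes were collected by product name, as trypsins, chymotrypsins, mast cell proteases, carboxypeptidases B, clip-domain proteases, prophenoloxidase-activating enzymes and any other product called a serine protease or proteinase, and products named as inhibitor, serpin, HtrA or mitochondrial were dropped. This gave 126 of the 16877 gene models listed. Of the libraries, 3 are labelled siNC, a negative control small interfering RNA (siRNA), and 3 are labelled siUFBP1, an siRNA against UFBP1. UFBP1, also called DDRGK1, is a membrane protein of the endoplasmic reticulum that works in UFMylation, the coupling of the small protein UFM1 to its targets. The labels' protocols describe P50 strain larvae on day 3 of instar 5 that received 2.5 µg of siRNA each, and the baculovirus BmNPV was given 12 h later, so the control libraries carry the infection too. Fat body, the storage and metabolic organ of insects, was collected at 24, 48 and 72 h, and no time is given for each library. The labels also name BmN, an ovary-derived silkworm cell line, and describe its transfection, so that the labels alone do not settle the source. The protocols speak of 30 larvae, and nothing says that the replicates came from separate animals, so p-values measure the spread between these libraries.

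The libraries held 25570725 to 53204480 counts. By total counts alone, 3 counts in a library correspond to 0.0564 to 0.117 CPM, the count scaled to library size. All CPM values below are TMM-normalized, with a further scaling factor per library. On that scale 3 counts were 0.123 to 0.148 CPM in siNC and 0.0408 to 0.0906 CPM in siUFBP1. The transcript of UFBP1 itself (KWMTBOMO13599) stood at 36.5, 31.1 and 34.2 CPM in siNC and at 32.7, 34.4 and 34.6 CPM in siUFBP1. The groups overlapped under TMM scaling, and the log2 fold change was 0.00 ± 0.056 (SE, n = 3 each, edgeR adjusted p = 0.951). Its raw counts were 783, 758 and 692 in siNC, from totals of 28098267, 31760120 and 27100565. In siUFBP1 they were 1113, 1140 and 2546, from totals of 26610347, 25570725 and 53204480. By library size alone the transcript was thus higher in siUFBP1. The targeted transcript therefore does not check the labels, and every direction below compares libraries labelled siUFBP1 with libraries labelled siNC. Fat body markers (storage proteins and 30 kDa lipoproteins) took 74.3 to 74.7% of the counts in siNC and 47.7 to 49.2% in siUFBP1. Silk gland markers took 0.04999 to 0.0530% and 10.1 to 11.8%, led in siUFBP1 by fibroin heavy chain (KWMTBOMO15365) and in siNC by a fibrohexamerin (KWMTBOMO08316) that did not pass the test. Testis markers were higher for 98 of 113 tested genes, and their summed level went from 228.6 to 238.2 CPM in siNC to 986.7 to 1031.5 CPM in siUFBP1. Of the 154 testis markers, 86 were without siNC counts. Cuticle markers were higher for 41 of 48 tested genes, and 96 of the 158 on the list were without siNC counts. Markers without siNC counts pass the filter on low counts only through siUFBP1 and could only be called higher. Of all tested genes, 40.0% were called higher. Muscle markers were higher for 14 and lower for 6 of 24, the lower ones with titin KWMTBOMO11519, which held 45.8% of their siNC sum. Ovary markers were lower for 5 and higher for 1 of 8 tested, and the only Malpighian tubule marker, uricase (KWMTBOMO01814), was lower (log2 fold change -0.44 ± 0.030). With library size alone, 3 ovary markers were higher and 1 lower, and uricase was higher. The part of these other tissues' RNA in the protease results was not tested. In bulk RNA, fewer cells of a type and less RNA per cell cannot be told apart.

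Serine proteases cut proteins with a catalytic serine and are made as inactive zymogens that another cut switches on. In the larval midgut, trypsins and chymotrypsins digest dietary protein, and carboxypeptidases B trim basic residues from the ends of the peptides. In the hemolymph, the insect blood, clip-domain proteases form cascades in which each zymogen activates the next. One branch activates prophenoloxidase, the enzyme of melanization, and another cuts Spätzle, the ligand of the Toll receptor. The fat body is a known source of many hemolymph proteases and of the serpins that inhibit them.

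The names collected more than serine proteases. A trypsin domain was annotated in 102 of the 126 models and a clip domain in 9, while 6 were serine carboxypeptidases of family S28. The 10 carboxypeptidases B carry a zinc carboxypeptidase domain and are metalloenzymes. The 4 models called antitrypsin or antichymotrypsin carry a serpin domain and are inhibitors that matched by name. KWMTBOMO08585, named Hayan-like, also carries an RNA recognition motif, and its other database match is a protein of the U11/U12 small nuclear ribonucleoprotein.

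Genes with digestive names (trypsin, chymotrypsin and carboxypeptidase B) were grouped with a mast cell protease, whose name is not digestive. The group was nearly without counts in siNC and was higher in siUFBP1 wherever a call was made. Its summed level went from 2.30 ± 0.887 to 244.3 ± 3.32 CPM (SD, n = 3 each), and the mast cell protease held 42.1% of the siUFBP1 sum. Products with clip or other serine protease names went both ways, with 21 higher and 11 lower of 43 tested. Among them the abundant hemolymph-type proteases, and also 2 serpins, were lower by less than 2-fold, a direction that depends on the scaling. Of all 126 models, 61 passed the filter on low counts, 36 were called higher and 13 lower at an adjusted p of 0.05, and 12 did not pass. Of all 10729 genes tested, 40.0% were called higher and 28.4% lower, against 59.0% and 21.3% of the tested members. A call of at least 2-fold higher was made for 33 members, or 54.1%, against 22.7% of all tested genes. None was called at least 2-fold lower, against 5.11% of all tested genes, and the count was also 0 at an unadjusted p under 0.05 and with DESeq2 and limma-voom. The median log2 fold change was 1.77 over the tested members and 0.11 over all tested genes. A gene with no or few counts in siNC passes the filter only through its siUFBP1 counts and had to differ, so these shares describe the tested genes and not all 126.

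Low abundance set which members could be compared. The siNC libraries held counts for 54, 47 and 48 of the 126 models, and the siUFBP1 libraries for 79, 76 and 94. Over all 16877 models the numbers rose too, from 11477, 11606 and 11335 in siNC to 13447, 13468 and 14474 in siUFBP1. Drawn down to the smallest total, the members' numbers were 54, 47 and 48 against 79, 76 and 92, so that the deeper siUFBP1 replicate 3 still had the most. Of the 65 models not tested, 27 had no count anywhere, 24 had counts in siUFBP1 libraries only, 1 in siNC only and 13 in both. The highest mean among them was 0.392 CPM in siUFBP1. Models with no siNC count and a count in every siUFBP1 library numbered 9, or 7.14% of the members, close to the 6.64% of all 16877 models. The groups did not overlap for 52 of the 61 tested members, or 85.2%, against 71.2% of all tested genes.

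**Figure D1:**
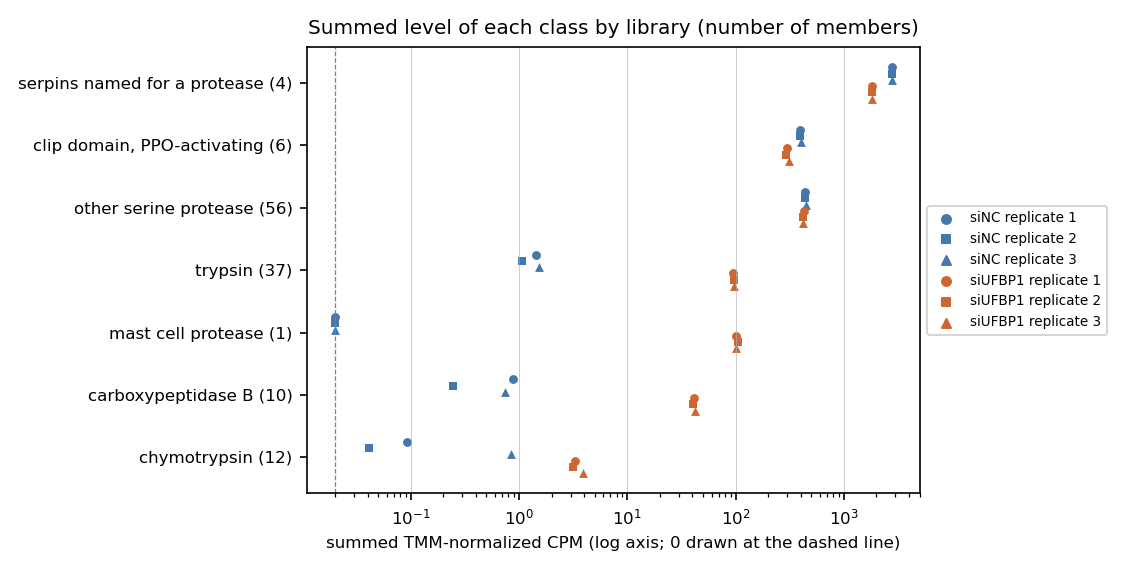
Summed TMM-normalized CPM of each class of members (log axis, number of members in brackets), 1 point per library, with 0 drawn at the dashed line. Trypsins, the mast cell protease, carboxypeptidases B and chymotrypsins lie far to the right in the 3 siUFBP1 libraries, while serpins and clip-domain proteases lie slightly to the left, which holds under TMM scaling and not under library size alone.

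The trypsin-type increase came mainly from a pair of genes. Mast cell protease 3 (KWMTBOMO07954), a trypsin-domain protein named after a mammalian granule protease, was without a count in siNC and stood at 101.1, 105.4 and 102.0 CPM in siUFBP1. Against a floor of 3 counts over the siNC group it was at least 2262.5-fold higher (edgeR adjusted p = 2.93e-19). The model named trypsin (KWMTBOMO08816), a name from Swiss-Prot alone since its other match is uncharacterized, likewise had no siNC count and stood at 83.7, 85.9 and 84.3 CPM. It was at least 1862-fold higher (edgeR adjusted p = 6.23e-19). These levels were nearly equal across the 3 siUFBP1 libraries, with SDs of 2.24 and 1.18 CPM. In FPKM, which is per transcript length, they ranked 6 and 7 among the 126 models in siUFBP1, at 76.8 to 82.9 and 77.0 to 83.1, while both were listed at 0 in every siNC library.

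KWMTBOMO08816 made up 87.7% of the summed trypsin level in siUFBP1, which was 96.5 ± 1.64 CPM against 1.35 ± 0.248 CPM in siNC (SD, n = 3 each). Of the 37 trypsins, 7 were tested and 6 were higher. Trypsin-1 (KWMTBOMO05555) had 3 counts in siNC replicate 1 and none in the other siNC libraries, and stood at 4.47, 4.86 and 5.25 CPM in siUFBP1. The ratio of summed counts was 109 (95% exact binomial interval 37.3 to 531.4, counting error only). Trypsin eta (KWMTBOMO00987) had no siNC count and stood at 2.23, 2.75 and 1.95 CPM, at least 50.8-fold higher. The exception, trypsin-7 (KWMTBOMO11795), had the highest CPM of the trypsins in siNC, with 0.606, 0.657 and 0.989 CPM there and 0.911, 0.543 and 0.884 CPM in siUFBP1. Its groups overlapped, and its log2 fold change was 0.09 ± 0.32 (SE, edgeR adjusted p = 0.807).

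The alkaline trypsins, the midgut trypsins described in moth larvae, stayed near the detection limit. Of the 12 models with this name, 2 were tested and both were higher, 8 had no siNC count and 2 had no count in any library. Their summed level was 0.444 ± 0.0898 CPM in siNC and 1.58 ± 0.217 CPM in siUFBP1 (SD, n = 3 each). KWMTBOMO07254, alkaline C-like, had no siNC count and stood at 0.676, 0.302 and 0.694 CPM in siUFBP1. KWMTBOMO02953 had siNC counts in replicate 3 alone, at 0.346 CPM, against 0.411, 0.362 and 0.367 CPM (log2 fold change 1.79 ± 0.75, edgeR adjusted p = 0.0426), so its change rests on the siNC libraries at 0, and upper quartile scaling did not call it (1.65, edgeR adjusted p = 0.0614). The 6 models of the run KWMTBOMO03767 to KWMTBOMO03772 had no siNC count at all and too few in siUFBP1 to be tested.

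Trypsin-3-like (KWMTBOMO13836) had its 49 counts in siUFBP1 replicate 3 and none elsewhere, and a snake-named model (KWMTBOMO07566) had its 13 counts in siUFBP1 replicate 1. Neither was tested.

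Carboxypeptidases B, zinc enzymes that act on the peptides trypsins release, rose too among the digestive names. The tested models list a zinc carboxypeptidase domain alone. The models not tested also list a carboxypeptidase activation peptide, so the rise was not seen in models with that domain. All 4 tested of 10 were higher, and the summed level was 0.625 ± 0.336 CPM in siNC and 41.6 ± 0.697 CPM in siUFBP1 (SD, n = 3 each). KWMTBOMO01390 had 2 counts in siNC replicate 2 and none in the other controls, and stood at 15.8, 14.7 and 15.8 CPM. Its ratio of summed counts was 512.1 (95% exact binomial interval 141.6 to 4231.7). Its near neighbour in the model numbering, KWMTBOMO01392, had no siNC count and 10.3, 10.4 and 10.7 CPM, at least 230.5-fold higher. KWMTBOMO10343 was detected in every library, at 0.327, 0.164 and 0.198 CPM in siNC and 13.7, 14.0 and 14.0 CPM in siUFBP1, a log2 fold change of 5.92 ± 0.17 (SE, edgeR adjusted p = 1.11e-15). KWMTBOMO15086 rose by a log2 value of 4.46 ± 0.48 to 1.40 ± 0.125 CPM (SD, n = 3). The 3 models KWMTBOMO08183 to KWMTBOMO08185 were not tested, and only the last had counts, 15 over the siNC libraries and 35 over the siUFBP1 libraries.

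Chymotrypsins, which cut after aromatic residues, had the lowest summed CPM of the multi-gene classes with a digestive name. All 3 tested of 12 were higher, and the summed level was 0.325 ± 0.447 CPM in siNC and 3.46 ± 0.414 CPM in siUFBP1 (SD, n = 3 each). Chymotrypsin-2-like (KWMTBOMO08573) stood at 0.0466, 0 and 0.0989 CPM in siNC and at 1.88, 2.11 and 2.31 CPM in siUFBP1. The ratio of its summed counts was 47.6 (95% exact binomial interval 16.1 to 231.8). A chymotrypsin-2 isoform (KWMTBOMO03497) reached 0.399 ± 0.0989 CPM (SD, n = 3), against 1 count in siNC replicate 3. Chymotrypsin-C (KWMTBOMO16394) had siNC counts in replicate 3 alone, at 0.396 CPM, against 0.882, 0.725 and 0.884 CPM in siUFBP1. Its log2 fold change was 2.74 ± 0.64 (SE, edgeR adjusted p = 0.00102), the fitted value was 7.97 without siNC replicate 3, and DESeq2 did not call it (adjusted p = 0.170).

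**Figure D2:**
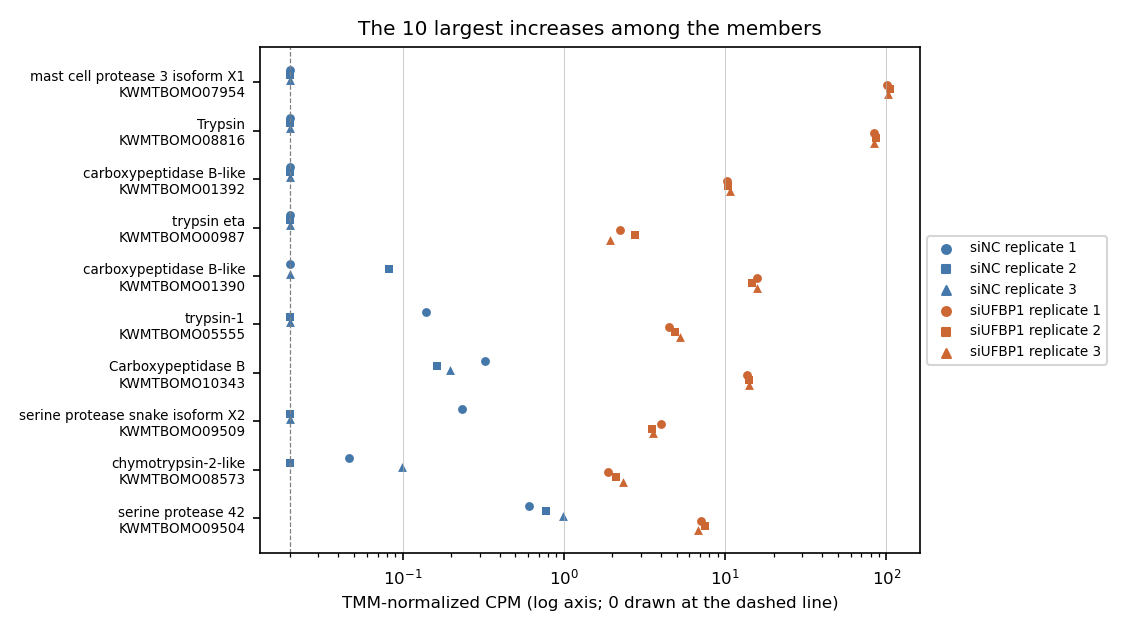
TMM-normalized CPM of the 10 called members with the largest fitted increase and a mean of at least 1 CPM over all libraries (log axis), 1 point per library, with 0 drawn at the dashed line. In every row the 3 siUFBP1 points lie to the right of the 3 siNC points. Mast cell protease 3 and trypsin reach 101.1 to 105.4 and 83.7 to 85.9 CPM from no count, and serine protease 42 starts from 0.606 to 0.989 CPM.

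The digestive names and the mast cell protease, taken as 1 group, were 60 models. Of these, 15 were tested, 14 were higher and none was lower, also at an unadjusted p under 0.05. The siNC means of the 14 were 0 to 0.230 CPM, so they passed the filter through their siUFBP1 counts and could hardly have been called lower, and the count is a description only. Trypsin-7, with more siNC counts than any of them, is the member that did not pass. Midgut markers, the tissue where such enzymes are mainly made, went both ways under TMM scaling. Of 20 midgut markers 8 were tested, 5 were higher and 3 lower, with a median log2 fold change of 0.81. By at least 2-fold, 4 were higher and 0 lower, and these 4 had siNC means of 0.244 to 2.88 CPM. The list's summed level was 66.3 to 73.9 CPM in siNC and 71.2 to 74.0 CPM in siUFBP1. Library size alone gave 7 higher calls and no lower one, and the list's share of the counts was 0.005085 to 0.00551% in siNC and 0.00910 to 0.0101% in siUFBP1. The defining one, insect intestinal mucin (KWMTBOMO12465), a protein of the gut lining, had 11, 4 and 8 counts in siNC and 18, 6 and 16 in siUFBP1, too few to be tested. Other digestive enzymes (lipases, amylases, maltases and aminopeptidases, some of them also midgut markers) had 11 higher and 8 lower of 20 tested, with a median log2 fold change of 0.47, and their summed level was 341.9 ± 6.80 CPM in siNC and 234.7 ± 0.789 CPM in siUFBP1 (SD, n = 3 each). The one with the highest CPM in siNC, pancreatic lipase-related protein 2-like (KWMTBOMO13051), fell by 1.60 ± 0.044 on the log2 scale (edgeR adjusted p = 4.44e-16), and beta-fructofuranosidase (KWMTBOMO10007), a sugar-splitting enzyme with the highest CPM in siUFBP1, fell by 0.99 ± 0.040 (edgeR adjusted p = 1.50e-13). With library size alone this list had 16 higher and 3 lower calls. Its share of the counts was 0.0257 to 0.0261% in siNC and 0.02995 to 0.0326% in siUFBP1, so the fall of its sum depends on the scaling.

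The rule's other large class held 56 products called serine protease without a digestive or clip name. Many are named after Drosophila proteases, among them gastrulation defective (gd), snake and easter, which act in that order in the fly embryo, where easter cuts Spätzle. Of the 38 tested, 18 were higher, 9 lower and 11 did not pass, with a median log2 fold change of 0.38 and a summed level of 440.0 ± 5.47 CPM in siNC and 423.5 ± 1.59 CPM in siUFBP1 (SD, n = 3 each). Within it, models with the domain called gd N-terminus moved together. All 6 were tested and higher by at least 2-fold, and their summed level was 1.18 ± 0.291 CPM in siNC and 15.4 ± 0.815 CPM in siUFBP1 (SD, n = 3 each). This grouping by domain was made after the values were seen, and 5 of the 6 had siNC means of 0 to 0.227 CPM and so passed the filter through their siUFBP1 counts.

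Of these 6 models, 5 lie in 1 run of model numbers, KWMTBOMO09504 to KWMTBOMO09511. Serine protease 42 (KWMTBOMO09504) had the highest CPM, at 0.606, 0.780 and 0.989 CPM in siNC and 7.11, 7.52 and 6.76 CPM in siUFBP1. The groups were well apart, and its log2 fold change was 3.16 ± 0.17 (SE, edgeR adjusted p = 6.87e-12). Snake isoform X2 (KWMTBOMO09509) had siNC counts in replicate 1 alone, at 0.233 CPM, and stood at 3.996, 3.53 and 3.56 CPM in siUFBP1, with a fitted log2 fold change of 5.54 ± 0.42 (edgeR adjusted p = 1.19e-09). A gd isoform (KWMTBOMO09510) had no siNC count and was at least 38.1-fold higher, at 1.88, 1.48 and 1.84 CPM. Another gd model (KWMTBOMO09508) rose by a log2 value of 2.69 ± 0.47, and a snake model (KWMTBOMO09511) had a ratio of summed counts of 13.3 (95% exact binomial interval 4.40 to 65.8). The sixth, gd-like KWMTBOMO09773, had a ratio of 17.2 (interval 5.74 to 84.7).

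The gd-named models without this domain did not pass, and they stood at higher CPM. KWMTBOMO04985 stood at 19.8, 17.98 and 22.1 CPM in siNC and 19.9, 19.2 and 18.5 CPM in siUFBP1, a log2 fold change of -0.06 ± 0.070 (edgeR adjusted p = 0.499). Its neighbour KWMTBOMO04986 stood at 21.8, 22.0 and 19.3 CPM and at 23.1, 22.7 and 23.3 CPM (log2 fold change 0.13 ± 0.060, edgeR adjusted p = 0.0645). Both were called higher with library size alone, at log2 values of 0.75 and 0.93, and upper quartile scaling called KWMTBOMO04985 lower (-0.20, edgeR adjusted p = 0.0208).

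Other models with Drosophila names went both ways. Of 9 named snake, 7 were tested, 4 were higher and 1, KWMTBOMO12406, was lower. Of 9 named stubble, after a transmembrane protease of fly leg and wing shaping, 4 were tested and 3 were higher, led by KWMTBOMO12407 at 1.35, 0.821 and 1.39 CPM in siNC and 5.35, 5.92 and 6.12 CPM in siUFBP1 (log2 fold change 2.31 ± 0.17, edgeR adjusted p = 1.02e-09). KWMTBOMO12406 and KWMTBOMO12407 are neighbours and moved in opposite directions under TMM scaling, as did Hayan-like KWMTBOMO06953 and persephone KWMTBOMO06954. Scarface (KWMTBOMO14032), an inactive clip-domain protease homolog named after a gene of fly dorsal closure, stood at 7.04, 7.31 and 6.38 CPM in siNC and 27.5, 29.5 and 30.5 CPM in siUFBP1. Its log2 fold change was 2.08 ± 0.075 (edgeR adjusted p = 2.63e-14). Easter (KWMTBOMO16366) did not pass, at 8.65 to 10.3 CPM in siNC and 8.09 to 9.78 CPM in siUFBP1. Upper quartile scaling called it lower (-0.25, edgeR adjusted p = 0.0276) and library size alone called it higher (0.69). Another easter model (KWMTBOMO16361) was higher, by 2.58 ± 0.69 (edgeR adjusted p = 0.0029), from 0 to 0.198 CPM in siNC to 0.326 to 0.823 CPM in siUFBP1. The putative serine protease K12H4.7 (KWMTBOMO00278), of family S28, did not pass either, at 51.8, 45.0 and 45.7 CPM and at 46.6, 50.6 and 50.8 CPM (log2 fold change 0.06 ± 0.054, edgeR adjusted p = 0.347). It was called with library size alone (0.86), in both FPKM fits (0.80 and 0.83) and without siNC replicate 1 (0.12, edgeR adjusted p = 0.0462).

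The hemolymph cascade came next, from recognition to melanization. Upstream, the abundant members were lower in siUFBP1 under TMM scaling, while the enzyme that cuts prophenoloxidase was higher. Modular serine protease-like (KWMTBOMO14788), the type of protease that starts the cascade in other insects, stood at 42.5, 40.3 and 45.8 CPM in siNC and 27.4, 28.04 and 26.5 CPM in siUFBP1. Its log2 fold change was -0.65 ± 0.053 (SE, edgeR adjusted p = 3.84e-09), but 0.15 with library size alone. HP21 (KWMTBOMO14671), whose hornworm namesake activates prophenoloxidase-activating proteases, stood at 127.2, 138.0 and 144.0 CPM and at 121.3, 115.1 and 114.1 CPM. The groups were close but did not overlap, with a log2 fold change of -0.22 ± 0.042 (edgeR adjusted p = 0.000132), but 0.58 with library size alone.

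Clip-domain proteases, whose regulatory clip domain stays linked to the catalytic part, numbered 6 by name. Of these, 5 were tested, 3 were higher and 2 lower, and the summed level was 394.8 ± 4.64 CPM in siNC and 302.4 ± 9.64 CPM in siUFBP1 (SD, n = 3 each). The share of the counts was 0.0299 to 0.0301% in siNC and 0.0381 to 0.0433% in siUFBP1, so the fall of the sum depends on the scaling. KWMTBOMO16849, the sixth, had no count. CLIP domain-containing serine protease 2 (KWMTBOMO15224), RefSeq symbol BAEE, is a silkworm protease of the prophenoloxidase cascade. It stood at 178.7, 175.9 and 181.9 CPM in siNC and 109.1, 111.4 and 114.6 CPM in siUFBP1, a log2 fold change of -0.68 ± 0.033 (edgeR adjusted p = 2.23e-12), but 0.12 with library size alone.

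Clip domain serine protease 11 (KWMTBOMO14542) and serine proteinase-like protein (KWMTBOMO14619) share the clip domain named after phenoloxidase-activating factor 2, in a beetle a homolog without catalysis that assists the activating enzyme. The first stood at 199.6, 204.0 and 204.6 CPM in siNC and 143.1, 135.9 and 149.3 CPM in siUFBP1 (log2 fold change -0.50 ± 0.036, edgeR adjusted p = 5.74e-10). The other stood at 91.3, 94.2 and 90.3 CPM and at 72.5, 76.1 and 75.5 CPM (log2 fold change -0.30 ± 0.037, edgeR adjusted p = 1.09e-06). The values were 0.30 and 0.50 with library size alone.

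The phenoloxidase-activating enzyme (KWMTBOMO16370), which cuts prophenoloxidase itself, went the other way. It stood at 7.93, 6.16 and 6.33 CPM in siNC and at 36.6, 36.6 and 36.7 CPM in siUFBP1, 5.40-fold higher (log2 fold change 2.43 ± 0.075, edgeR adjusted p = 2.58e-15). Both clip domain serine protease 4 models were higher too, at lower levels. KWMTBOMO04172 stood at 1.63, 2.14 and 3.17 CPM in siNC and 4.79, 4.59 and 4.91 CPM in siUFBP1 (log2 fold change 1.06 ± 0.17, edgeR adjusted p = 2.60e-05). KWMTBOMO04173 stood at 3.87, 4.31 and 4.10 CPM and at 6.11, 5.92 and 7.66 CPM (log2 fold change 0.71 ± 0.13, edgeR adjusted p = 8.89e-05).

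**Figure D3:**
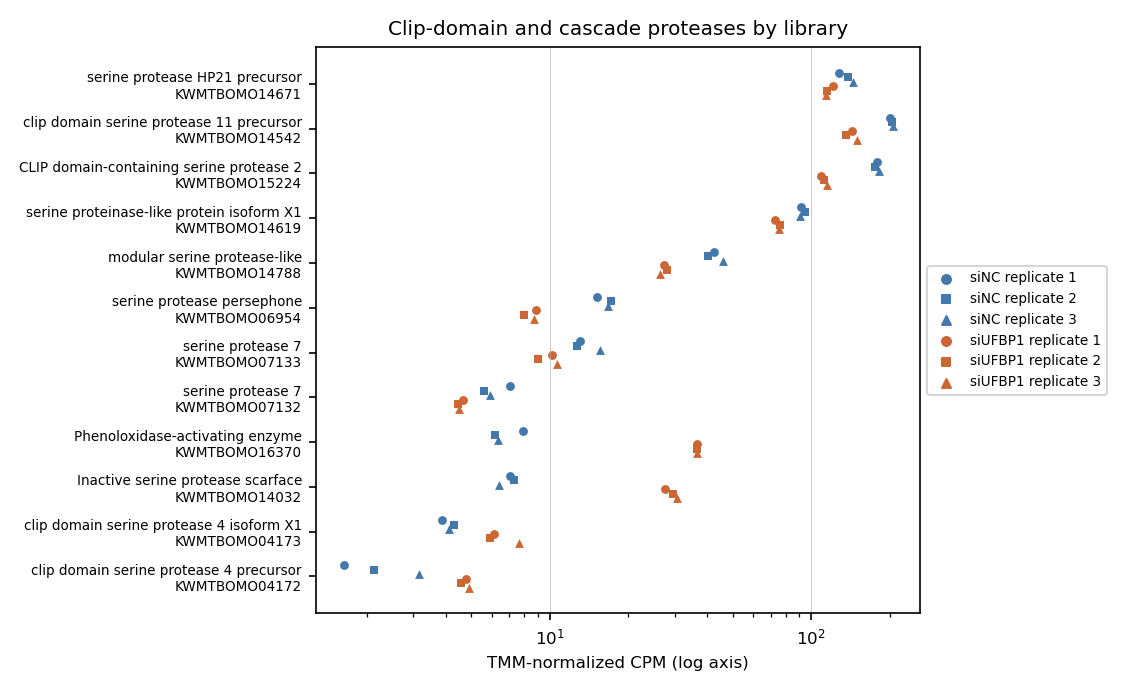
TMM-normalized CPM of clip-domain and cascade proteases (log axis), 1 point per library. The phenoloxidase-activating enzyme and scarface lie far to the right in siUFBP1, at 36.6 to 36.7 and 27.5 to 30.5 CPM, and the 8 genes in the upper rows lie to the left in siUFBP1, which holds under TMM scaling, while with library size alone all of these but persephone have fold changes above 0.

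Persephone (KWMTBOMO06954), named after the fly protease that answers microbial proteases and activates Toll, had the largest decrease called under TMM scaling. It stood at 15.2, 17.2 and 16.8 CPM in siNC and 8.87, 7.94 and 8.73 CPM in siUFBP1, a log2 fold change of -0.94 ± 0.078 (edgeR adjusted p = 5.16e-09). With library size alone the value was -0.14 and did not pass (edgeR adjusted p = 0.176). Hayan-like KWMTBOMO06956, 2 model numbers away, fell by 0.74 ± 0.21 (edgeR adjusted p = 0.00543), and snake KWMTBOMO12406 fell by 0.80 ± 0.20 (edgeR adjusted p = 0.00196). Both were near 0 with library size alone, at 0.07 and 0.00. Serine protease 7 is listed as KWMTBOMO07132 and KWMTBOMO07133, which match 1 RefSeq gene, so reads may be split between them. They fell alike, by 0.44 ± 0.11 and 0.44 ± 0.090 (edgeR adjusted p = 0.00219 and 0.000277), and had values of 0.36 each with library size alone.

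A pair of the serpins that matched by name led the members, in CPM and per length. Antitrypsin (KWMTBOMO13236) held 67.7% of the members' summed level in siNC and 57.3% in siUFBP1. It stood at 2434, 2454 and 2460 CPM in siNC and at 1602, 1608 and 1588 CPM in siUFBP1, a log2 fold change of -0.61 ± 0.025 (edgeR adjusted p = 1.82e-13). Antichymotrypsin-2-like KWMTBOMO08926 stood at 328.3, 335.9 and 335.5 CPM and at 217.4, 222.2 and 219.1 CPM (log2 fold change -0.60 ± 0.029, edgeR adjusted p = 1.77e-12). These serpins turned to 0.18 and 0.20 with library size alone. Another serpin, KWMTBOMO13249, had no siNC count and was at least 30.4-fold higher, at 1.44, 1.33 and 1.37 CPM. Without the 4 serpins the members' summed level was 837.1 ± 10.5 CPM in siNC and 970.2 ± 8.59 CPM in siUFBP1 (SD, n = 3 each).

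Per transcript length, the order of the mean levels at the top was the same in both groups, with pairs that overlap. In the authors' FPKM values, antitrypsin led, followed by KWMTBOMO08926, clip domain serine protease 11, BAEE and HP21. Their means were 1279, 158.4, 92.6, 91.4 and 66.7 FPKM in siNC and 1434, 179.2, 112.1, 98.1 and 98.1 FPKM in siUFBP1. In siNC, clip domain serine protease 11 held 91.1, 94.7 and 92.0 FPKM and BAEE 91.3, 91.4 and 91.6 FPKM, so their groups overlapped. In siUFBP1, BAEE held 93.3, 96.1 and 105.0 FPKM, a range that includes the mean of HP21, so this pair did not differ beyond its spread. The phenoloxidase-activating enzyme moved from rank 16 at 2.86 to 3.65 FPKM to rank 11 at 28.3 to 30.3 FPKM. All 5 leading genes were higher in siUFBP1 in FPKM and lower in TMM-normalized CPM.

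That reversal followed the scaling. TMM factors were 0.746 to 0.767 in siNC and 1.28 to 1.38 in siUFBP1, and without any such factor the median over all tested genes moved up by 0.80 (log2). In that fit, 55 members were called higher and none lower, 9 of the 13 lower calls became higher calls, and all 36 higher calls remained. Against the median of all genes in the same fit, 0.92, persephone, BAEE and the leading pair of serpins lay below. The change of scaling moved these genes by about as much as the median. Their place below it was thus fixed by the TMM fit and is no separate evidence for the lower calls.

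**Figure D4:**
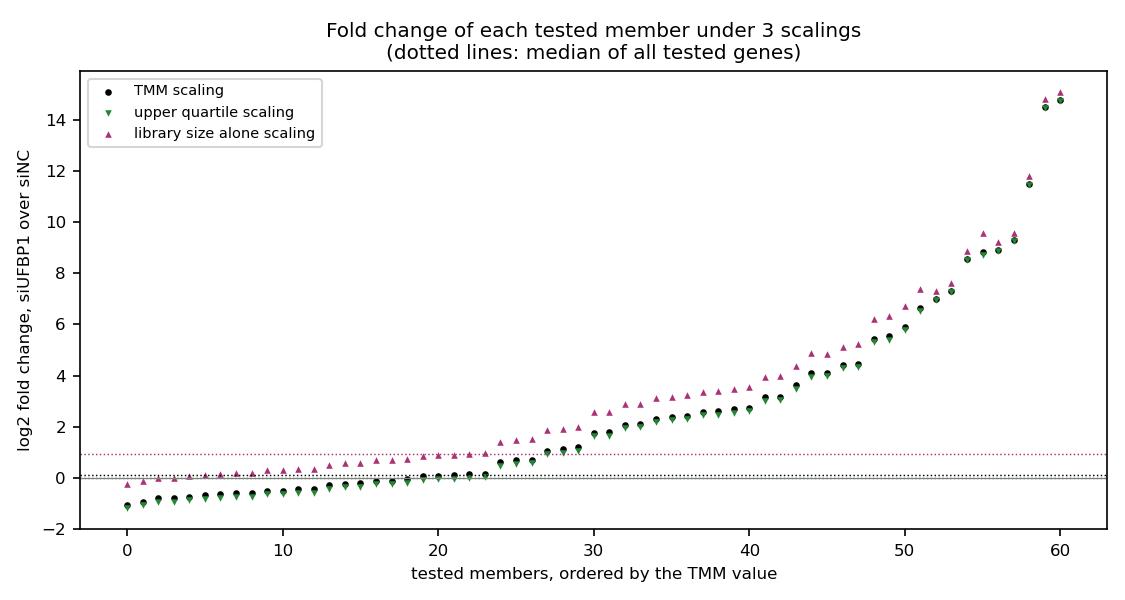
Log2 fold change (siUFBP1 over siNC) of each of the 61 tested members under TMM, upper quartile and library size scaling, ordered by the TMM value. A dotted line marks the median of all tested genes for each scaling. Values above about 6 belong mostly to genes with no siNC count and depend on the prior count. The members at the left lie below 0 under TMM and mostly above 0, but below the dotted median, with library size alone. Members and median move together between scalings, so this last position follows from the TMM values.

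Genes around the cascade were counted by name lists. Among recognition proteins, which bind microbial walls and start the cascade, 4 of 15 tested were higher and 5 lower (median log2 fold change -0.17). By at least 2-fold, 4 were higher and 1 lower. Beta-1,3-glucan-binding protein (KWMTBOMO06450) fell by 0.52 ± 0.034 and peptidoglycan recognition protein (KWMTBOMO04838) by 1.17 ± 0.046 (edgeR adjusted p = 1.67e-10 and 7.81e-14). Beta-1,3-glucan recognition protein 3 (KWMTBOMO06449) rose by 1.67 ± 0.045 (edgeR adjusted p = 4.41e-16). Of Toll receptors and Spätzle genes, 3 of 13 tested were higher and 4 lower (median 0.29), and the one with the highest CPM, protein toll (KWMTBOMO06073), fell by 0.79 ± 0.040 (edgeR adjusted p = 3.55e-12). Prophenoloxidase and melanization genes had 13 higher and 3 lower of 17 tested (median 1.51). Their summed level was 194.4 ± 4.13 CPM in siNC and 194.3 ± 2.99 CPM in siUFBP1 (SD, n = 3 each). Most genes of this list are named yellow or laccase and few are prophenoloxidases, so its counts mainly describe the former. Yellow-c (KWMTBOMO13038) alone held 58.8% of the list's siNC sum. With library size alone these 3 lists had 11 higher and 1 lower, 9 and 1, and 15 and 1.

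Models of prophenoloxidase, the substrate of the cascade, are named outside the fixed rule. Phenoloxidase subunit 1 (KWMTBOMO09392) stood at 9.24, 10.2 and 11.3 CPM in siNC and 4.32, 4.02 and 3.81 CPM in siUFBP1 (log2 fold change -1.35 ± 0.11, edgeR adjusted p = 2.04e-09). A subunit 1-like model (KWMTBOMO09393) did not pass, at 1.59 ± 0.286 and 1.34 ± 0.126 CPM (SD, n = 3 each). Subunit 2 (KWMTBOMO09804) stood at 13.8, 13.1 and 13.2 CPM and at 18.04, 17.9 and 18.6 CPM (log2 fold change 0.45 ± 0.064, edgeR adjusted p = 5.64e-06). Hemocytes, the blood cells that make prophenoloxidase, had 11 of 18 tested markers lower and 3 higher on a list that includes both subunits, and their markers' summed level was 246.5 to 261.6 CPM in siNC and 176.3 to 182.1 CPM in siUFBP1. Library size alone reversed this balance, to 10 higher and 4 lower, and the list's share of the counts was 0.0188 to 0.0198% in siNC and 0.0233 to 0.0244% in siUFBP1. Most genes of the list are integrins, receptors of cell adhesion, and integrin alpha-PS2 (KWMTBOMO05421) held 35.6% of the siNC sum. The list's calls and sum therefore mainly describe integrins. The hemocytin model with the most counts (KWMTBOMO05444) fell by 1.39 ± 0.075 under TMM scaling (edgeR adjusted p = 9.10e-12). The part of hemocyte RNA in the cascade values was not tested.

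Protease inhibitors that the name rule left out had 11 higher and 7 lower of 22 tested (median log2 fold change 0.49), and their summed level was 4270.5 ± 34.4 CPM in siNC and 2650.6 ± 27.9 CPM in siUFBP1 (SD, n = 3 each). Under TMM scaling, chymotrypsin inhibitor CI-8A (KWMTBOMO11319), a hemolymph inhibitor, made up 70.6% of this sum in siUFBP1 and fell by 0.77 ± 0.026 (edgeR adjusted p = 1.12e-14). SCI-III (KWMTBOMO00872) fell by 0.85 ± 0.044 (edgeR adjusted p = 5.67e-12). The list had 15 higher calls and 1 lower call with library size alone. Its share of the counts was 0.3215 to 0.3269% in siNC and 0.335 to 0.3694% in siUFBP1, so the fall of the sum depends on the scaling.

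Model numbers and RefSeq order were used to look for neighbours. Of 51 members with a silkworm gene number, 50 matched RefSeq and gave 45 genes, so that 5 genes are each listed as a pair of models. In the run KWMTBOMO09504 to KWMTBOMO09511 all 5 members were higher, with a median log2 fold change of 3.62. In KWMTBOMO16361 to KWMTBOMO16370, which ends with the phenoloxidase-activating enzyme, 2 of 3 tested members were higher. In KWMTBOMO06953 to KWMTBOMO06956 and KWMTBOMO12405 to KWMTBOMO12407 both directions occurred, 1 higher and 2 lower in the first and 2 higher and 1 lower in the other.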

How the data were processed

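Gene expression was measured in 6 libraries grouped by title. The labels' protocols name a SMARTER mRNA-Seq library kit, and the submitters' processing notes name fastp and HISAT2. Not given in the sources used here were tool versions, the counting program, its treatment of strand and shared reads, and the build, so no coordinates are printed. Per the file headers, the deposited table holds raw counts per gene model and FPKM, which the authors scaled by length and library size. Product names and Pfam domains are from that table. The authors' own comparison was not used here.

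edgeR 4.0.16 in R 4.3.3 (limma 3.58.1, DESeq2 1.42.0 for alternatives) was run on all models: filterByExpr, which dropped 6148 models with 0.0479% of the counts, TMM scaling, a quasi-likelihood test with group as the term, and Benjamini-Hochberg adjustment over 10729 genes at 0.05. CPM values are TMM-normalized. The SE is the log2 fold change over the square root of F. The fit was tested on simulated data over 10566 genes, where a set with a mean count of at least 10 was changed 2-fold. It recovered 91% of the changed genes. The changes went up and down equally often, so the simulation does not cover the shift behind the TMM factors or test the lower calls. All replicate pairs differed beyond sampling noise (chi-square per degree of freedom 2.68 to 14.4). Pairs with siUFBP1 replicate 3, the deepest library, gave 14.4 and 10.8, and the remaining pairs gave 2.68 to 3.56.

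Members and lists were chosen with earlier results of these data known. Named genes are the 10 largest increases and decreases with a mean of at least 1 CPM, the 4 highest members in each group, the 3 highest of each class and every tested clip-domain member, 29 in all. For related lists they are the 2 highest. Other genes named were chosen after their values were seen. Alternatives covered scaling, filter, test, replicate block, left-out libraries and FPKM.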

Additional observations from a re-analysis of the deposited data

How the results depend on the processing

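Scaling decided the lower calls. With library size alone, 55 members were higher and 0 lower, and in limma-trend fits on log2(FPKM + 1) and log2(FPKM + 0.1), which tested 36 members with a mean FPKM of at least 1, none was lower and 16 were higher by at least 2-fold. Turned above 0 with library size alone, FPKM + 1 and FPKM + 0.1 were Hayan-like KWMTBOMO06956 (0.068, 0.040 and 0.053), serine protease 7 KWMTBOMO07132 (0.36, 0.31 and 0.34) and KWMTBOMO07133 (0.36, 0.30 and 0.32), KWMTBOMO08926 (0.20, 0.18 and 0.18), antitrypsin KWMTBOMO13236 (0.18, 0.16 and 0.16), KWMTBOMO14542 (0.30, 0.27 and 0.27), KWMTBOMO14619 (0.50, 0.47 and 0.48), HP21 KWMTBOMO14671 (0.58, 0.55 and 0.56), KWMTBOMO14788 (0.15, 0.12 and 0.13) and BAEE KWMTBOMO15224 (0.12, 0.10 and 0.10). Snake KWMTBOMO12406 (0.0045) and nudel KWMTBOMO05081 (0.0067) turned with library size alone. Upper quartile scaling, which shifts the median of all genes by -0.14, gave 33 higher and 15 lower, with 1 lower by at least 2-fold, persephone (-1.08).

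Other settings changed the number of calls without turning a call. Removing 47 storage, 30 kDa lipoprotein and silk gland models left 53 members tested, 29 higher and 13 lower. A mean count of at least 10 gave 31 higher, 28 of them by at least 2-fold, and 13 lower. Leaving out each library gave 32 to 36 higher, 12 to 13 lower, 30 to 34 higher by at least 2-fold and 0 to 1 lower by at least 2-fold (nudel KWMTBOMO05081 without siNC replicate 1, KWMTBOMO11876 without siNC replicate 3). The replicate numbers do not pair the samples (correlations of 0.024, -0.019 and 0.018), and the replicate block gave 32 higher and 12 lower with none of the 29 named calls changed. DESeq2 gave 33 higher and 12 lower. Of the 65 models not tested, 27 had no count in any library. Intervals and floors cover counting error only.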
